A study of Mus musculus with 33 samples.

Results

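Sox2, Klf4 and Myc (SKM) were induced for 2 days in mouse neural progenitor cells (NPCs), and the RNA of these cells was set against that of uninduced NPCs. The members are the 4 RNA samples whose titles and count columns name NPC day 0 or NPC day 2, with 2 replicates on each day, out of 33 samples in the series, and each gene was followed across them. The series holds 22 RNA samples and chromatin samples. Its RNA samples follow mouse embryonic fibroblasts (MEFs) and NPCs from day 0 to day 12 of induction beside R1 embryonic stem cells and an SKM iPSC line. Both cell types are named secondary SKM cells, a term for cells derived from reprogrammed cells that already carry the inducible factors. NPC day 0 is the untreated population. NPC day 2 cells had been kept in mouse embryonic stem cell medium with doxycycline, which switches on the factors. The labels give no medium for uninduced NPCs, so induction and change of medium cannot be told apart in any result below. No strain, age or clone is given. The design text of the series speaks of expression in EGFP-positive populations of both cell types, and the titles of the NPC day 0 and day 2 samples carry no such mark.

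Neural progenitors are dividing cells of the embryonic brain that keep a glial-like program of Nes, Fabp7 and glutamate transporters, and in culture they are held in that state by FGF and EGF acting through ERK and by Notch signalling between neighbours. They already express Sox2, which in pluripotent cells works with Oct4 (Pou5f1). Klf4 is a zinc finger factor of epithelia and pluripotent cells, and Myc drives cell growth, above all the making of ribosomes.

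The libraries held 19195363, 18416667, 19710478 and 18934371 counts assigned to genes, from day 0 replicate 1 to day 2 replicate 2. Levels are given below as CPM, counts scaled to the size of each library with TMM factors, a scale that compares a gene between libraries but not one gene with another. Expression on a log2 scale correlated between replicates at r = 0.993 on day 0 and r = 0.975 on day 2 over 15565 genes. Replicates were more than 1 log2 unit apart at 86 genes on day 0 and at 1118 on day 2, so day 2 was the noisier group. Day 2 replicates of NPCs and MEFs with the same number deviated in the same direction (r = 0.71 over genes), which the labels do not explain. The stage field of both day 2 samples reads day 0 and that of the NPC day 4 samples reads day 2, whereas titles and column headings read day 2 and day 4, and groups follow the titles. The NPC markers Nes, Fabp7, Slc1a3, Olig2 and Sox2 were abundant on day 0. Nothing in the labels says that replicates came from separate cultures, so the spread between them may be technical. The tests pool that spread over the 5 NPC groups of the fit, not over days 0 and 2 alone. Replicates were more than 1 log2 unit apart at 1336 genes on day 4, in columns headed feeder and nofeeder, and at 2261 on day 8.

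The induced factors were higher in both day 2 libraries. Klf4 went from 8.30 and 21.4 CPM on day 0 to 969.6 and 795 CPM on day 2, a log2 fold change of 5.94 ± 0.47 (SE; edgeR quasi-likelihood test, Benjamini-Hochberg adjusted p = 3.97e-05). Myc stood at 68.6 and 58.4 CPM and then at 1244 and 1015 CPM (log2 fold change 4.21 ± 0.28, edgeR adjusted p = 1.56e-05). Sox2 started high, at 209.7 and 168 CPM, and reached 641 and 663 CPM (log2 fold change 1.84 ± 0.24, edgeR adjusted p = 0.000573). The groups did not overlap for any of the 3 factors. With 2 libraries a group this says little, here and below, since Cdkn1a and Ccnd1 also did not overlap and were not called. Reads of an introduced copy and of the resident gene cannot be told apart in these counts.

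Of 15565 genes tested, 2770 (17.8%) were called higher and 2637 (16.9%) lower on day 2 at an adjusted p below 0.05, 34.7% in all, and the median log2 change of all genes tested was 0.04. The shifts were large: 2255 genes rose and 2406 fell by more than 1 log2 unit, and 516 rose and 468 fell by more than 4. With 2 libraries a group the number of calls leans on each library. Without day 0 replicate 2 the counts were 1155 higher and 1087 lower, without day 0 replicate 1 they were 1264 and 1292, and without day 2 replicate 1 the lower calls were 1485. Of the called genes, 1952 (36.1%) stayed called in the same direction when any single library of the 4 was left out.

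**Figure D1:**
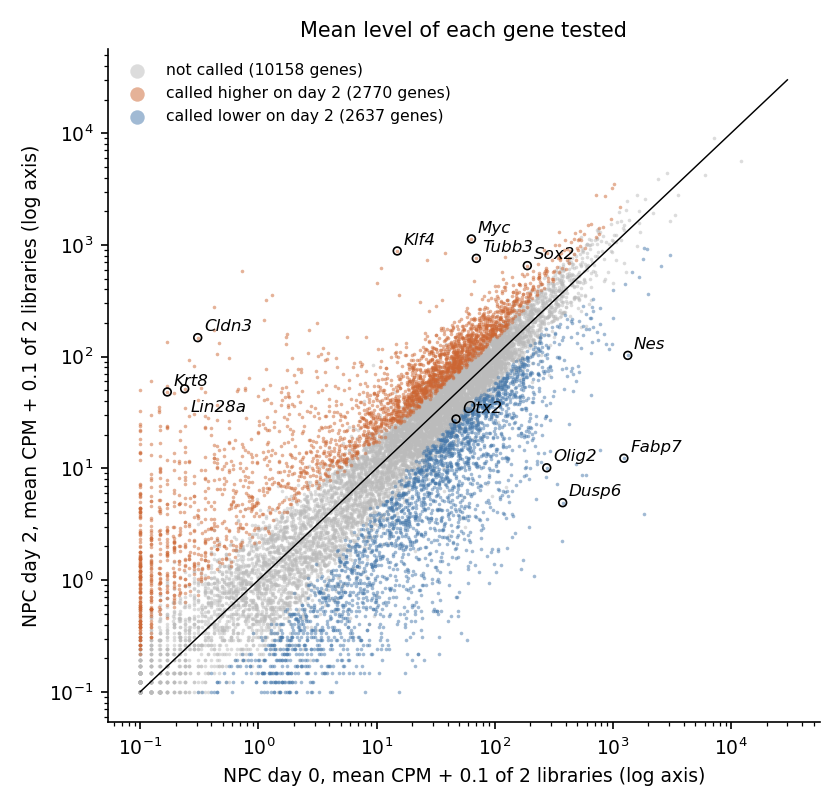
Mean level of each of the 15565 genes tested on day 0 (x) and day 2 (y), in CPM + 0.1 on log axes, each the mean of 2 libraries, with genes called higher in orange and called lower in blue. Fabp7, Nes, Olig2 and Dusp6 lie far below the line of equal levels, Klf4, Cldn3 and Krt8 far above it, and Otx2 near it.

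The neural progenitor program lost much of its RNA, though not evenly. Among transcription factors of neural progenitors, 38 of 43 listed were tested, 18 were called lower and 1 higher, and their median log2 change was -1.20. The lower calls were 10 when either day 0 library was left out, 11 without day 2 replicate 1 and 13 without day 2 replicate 2. In bulk RNA, fewer cells of a type and less RNA per cell cannot be told apart, here and below. Olig2, a factor of motor neuron and oligodendrocyte precursors, fell from 283 and 268 CPM to 11.7 and 8.40 CPM (log2 fold change -4.73 ± 0.77, edgeR adjusted p = 0.00165). Its neighbour in function Olig1 fell from 575 and 511 CPM to 10.6 and 6.70 CPM. Sox3, a close relative of Sox2, fell from 57.1 and 61.97 CPM to 0.752 and 1.75 CPM, so that 2 factors of the same family moved in opposite directions. Sox9, which marks glial competence, fell from 76.9 and 92.7 CPM to 2.96 and 6.75 CPM. All day 2 values of these 4 genes lay below all day 0 values, and each call was kept whichever library was left out.

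Other progenitor factors did not pass the test. Pax6, a regulator of cortical and eye progenitors, was at 14.6 and 14.4 CPM on day 0 and 13.9 and 12.4 CPM on day 2 (log2 fold change -0.09 ± 0.33, edgeR adjusted p = 0.871). Otx2, a factor of anterior brain and of early pluripotent epithelium, was at 46.8 and 47.2 CPM on day 0 and 23.1 and 31.99 CPM on day 2 (adjusted p = 0.377). Dlx2, a factor of ventral forebrain, was the 1 member called higher, from 1.09 and 1.16 CPM to 8.84 and 7.08 CPM, and this call was lost when either day 0 library was left out. Otx2 and Dlx2 were picked after their values were seen.

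Radial glial and astrocytic genes fell more often than they rose: 18 of 30 tested were called lower, 2 higher and 10 neither, with a median log2 change of -1.93. The lower calls were fewer with any library left out. Fabp7, a lipid-binding protein of radial glia, dropped from 1338 and 1142 CPM to 4.89 and 19.5 CPM (log2 fold change -6.60 ± 0.77, edgeR adjusted p = 0.000450). Aldh1l1, a folate enzyme used as an astrocyte marker, fell from 112 and 113 CPM to 0.376 and 2.17 CPM. Nes, the intermediate filament protein nestin, fell from 1215 and 1460 CPM to 55.5 and 149.5 CPM (log2 fold change -3.65 ± 0.71, edgeR adjusted p = 0.00388). Slc1a3, a glial glutamate transporter, kept more, at 561 and 479.8 CPM on day 0 and 71.4 and 73.9 CPM on day 2. The summed level of the list was 11026 and 10693 CPM on day 0 and 2952 and 4842 CPM on day 2, the second day 2 library keeping more of it than the first. The mature astrocyte gene Gfap was low throughout, at 1.64 and 1.53 CPM and then 0.611 and 5.94 CPM, and its day 2 libraries lay on either side of day 0.

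Genes of the neural matrix fell as well. Of 25 neural matrix and adhesion genes tested, 16 were called lower and 2 higher (median log2 change -2.15), with fewer lower calls when any library was left out. Tenascin C (Tnc), a glycoprotein of the progenitor niche, fell furthest of the genes chosen by the naming rule, from 1664 and 1987 CPM to 1.08 and 6.51 CPM (log2 fold change -8.85 ± 1.95, edgeR adjusted p = 0.00700), and the call was lost without day 2 replicate 1. Brevican (Bcan), a proteoglycan of the brain, fell from 326 and 417 CPM to 1.08 and 3.21 CPM (log2 fold change -7.37 ± 0.71, edgeR adjusted p = 0.000187). N-cadherin (Cdh2) fell from 387 and 383 CPM to 67.1 and 119 CPM, and the call held only when day 2 replicate 2 was the library left out. The potassium channel gene Kcnc1 fell from 198 and 228 CPM to 0.658 and 1.32 CPM (log2 fold change -7.69 ± 0.42, edgeR adjusted p = 1.25e-05). Timp4, an inhibitor of matrix proteases, had 908 counts over the day 0 libraries and 3 over the day 2 libraries, a level 296-fold lower with a 95% exact counting interval of 101 to 1436, and its call was lost when either day 0 library was left out. Intervals from counts in this text cover counting error only.

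**Figure D2:**
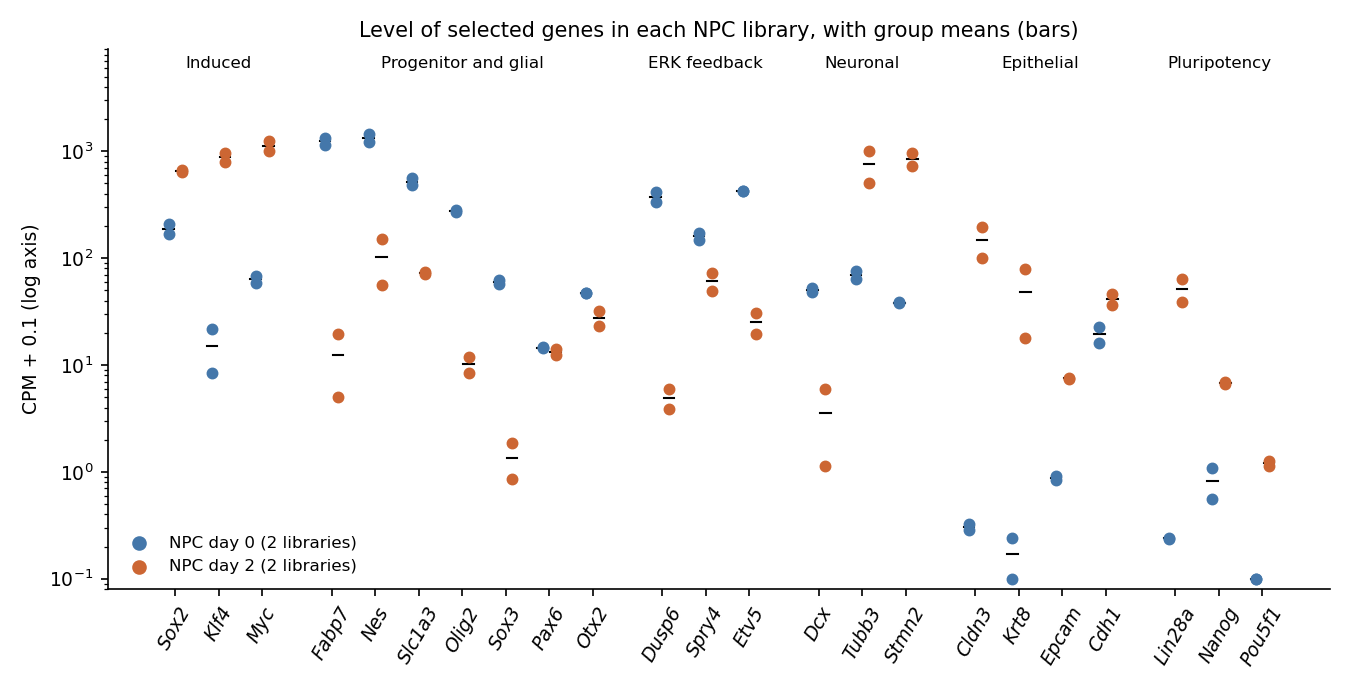
Level of selected genes in every NPC library, in CPM + 0.1 on a log axis, with 2 points per day and a bar at their mean. Fabp7, Nes, Olig2, Sox3 and Dusp6 were called lower, Pax6 and Otx2 did not pass the test, and Tubb3, Stmn2, Cldn3 and Lin28a rose.

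Neuronal genes split. Of 29 tested, 9 were called higher and 12 lower, the latter fewer with any library left out. Tubb3, the neuronal beta tubulin, rose from 63.7 and 75.9 CPM to 1015 and 500.1 CPM (log2 fold change 3.49 ± 0.41, edgeR adjusted p = 0.000305). Stmn2, a microtubule regulator of growing axons, rose from 38.6 and 37.8 CPM to 724 and 972 CPM (log2 fold change 4.53 ± 0.31, edgeR adjusted p = 1.95e-05). Both rose in MEFs as well, where Tubb3 went from a mean of 37.5 to 529 CPM and Stmn2 from 199.7 to 535 CPM. Doublecortin (Dcx), the marker of newborn neurons, fell instead, from 47.8 and 52.6 CPM to 1.03 and 5.85 CPM (log2 fold change -3.80 ± 0.75, edgeR adjusted p = 0.00413). The proneural factor Neurog2, with 1 count on day 0 and 284 on day 2, was 291-fold higher (95% exact counting interval 51.8 to 11523), at 6.21 and 7.17 CPM. Its relative Neurog1 had no count on day 0 and was at 1.55 and 12.5 CPM on day 2, at least 101-fold higher against a floor of 3 counts over the group, in a call kept only without day 2 replicate 1.

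Oligodendrocyte lineage genes also split, with 3 of 12 tested called higher and 5 lower, the latter 2, 1 and 2 without day 0 replicate 1, day 0 replicate 2 and day 2 replicate 1. Mbp, best known for myelin but with other transcripts elsewhere, rose from 1.55 and 1.81 CPM to 34.00 and 39.4 CPM. Bcas1 fell from 32.8 and 30.1 CPM to 0.564 and 1.84 CPM. The precursor receptor Pdgfra fell from 8.53 and 6.50 CPM to 0 and 0.330 CPM, but this call was lost with any library left out.

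Genes of the growth factor pathway that keeps progenitors dividing were mostly called lower. Of 30 ligands, receptors and feedback targets of FGF, EGF and ERK, 22 were called lower and 2 higher, with a median log2 change of -2.21. Between 13 and 18 were called lower with a library left out, 13 without day 0 replicate 2 and 14 without day 2 replicate 1. Among receptors, Egfr fell from 136 and 148 CPM to 24.03 and 38.03 CPM, while Erbb3 rose from 0.958 and 0.882 CPM to 40.5 and 12.4 CPM. Dusp6, the phosphatase that ERK induces to restrain itself, fell from 414 and 338 CPM to 3.81 and 5.85 CPM (log2 fold change -6.22 ± 0.63, edgeR adjusted p = 0.000144). Etv5, an ETS factor downstream of FGF, fell from 428 and 427 CPM to 19.3 and 30.5 CPM, and Spry1, a feedback inhibitor, from 174 and 187 CPM to 10.9 and 8.87 CPM. Ccnd1, the cyclin through which growth factors promote division, was at 1325 and 1159 CPM on day 0 and 461 and 904 CPM on day 2 and did not pass (edgeR adjusted p = 0.0833). Etv5 and Spry1 were picked after their values were seen.

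**Figure D3:**
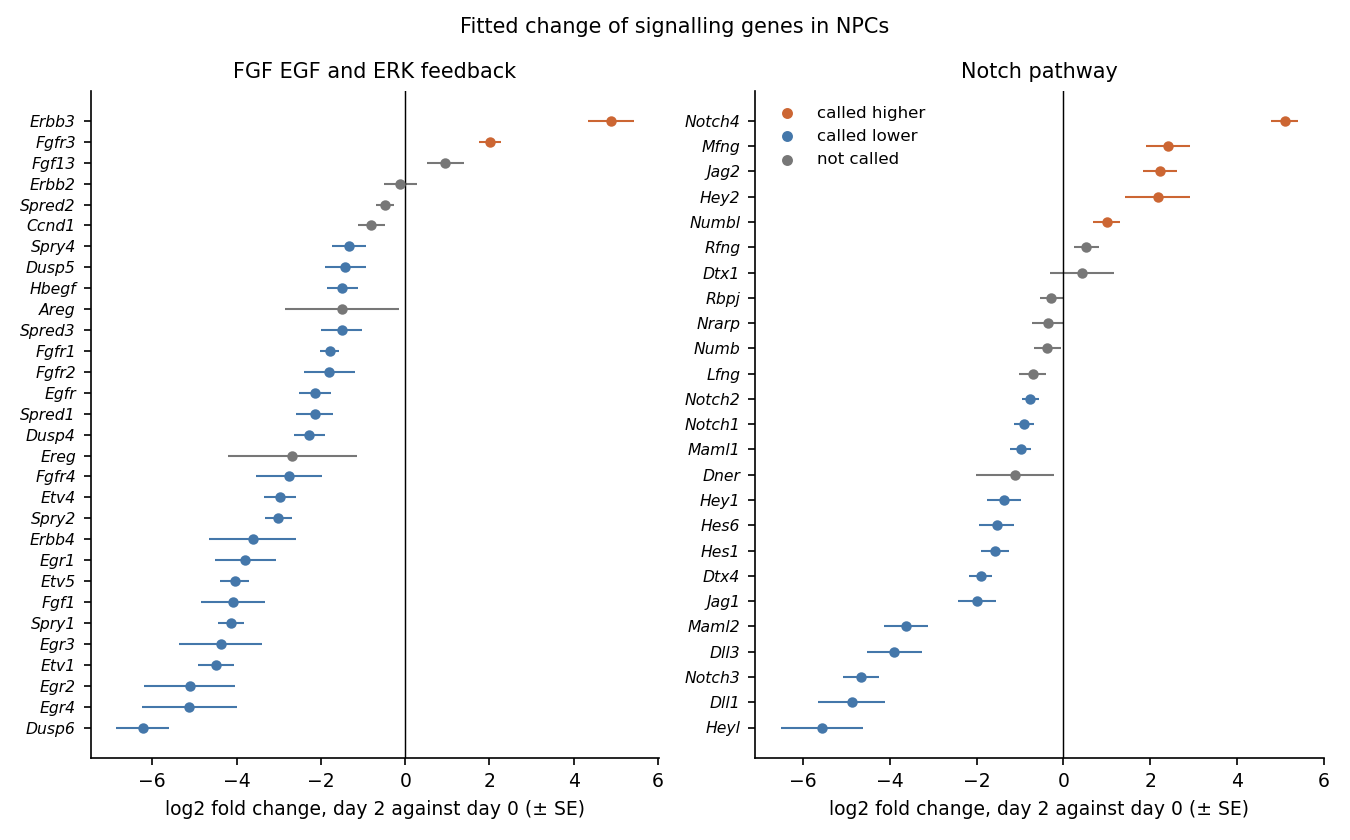
Fitted log2 fold change of day 2 against day 0 with its SE for each tested member of the FGF, EGF and ERK list (30 genes) and of the Notch list (25 genes). Orange marks genes called higher, blue lower and grey neither; Dusp6 and Heyl lie farthest left and Erbb3 and Notch4 farthest right.

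Immediate-early genes differed between the day 0 libraries themselves. Fos was at 36.3 and 242 CPM on day 0 and 4.80 and 2.88 CPM on day 2, and its fall was called whichever library was left out. Fosb was at 1.05 and 147 CPM on day 0 and 1.32 and 0.849 CPM on day 2. The groups overlapped, and its log2 fold change of -6.04 came from the second day 0 library and was 0.0682 without it. Klf6, a growth-factor-induced Klf gene, fell from 93.5 and 173 CPM to 4.23 and 5.57 CPM. The share of this list called higher was close to that over all genes tested (17.8%): of its 21 members, 7 were called lower and 4 higher. Without day 0 replicate 1 they were 7 and 1, and without any other library 3 to 4 lower and 2 to 3 higher.

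Notch genes were called lower more often than higher, and the share called higher was close to that over all genes tested (17.8%). Of 25 tested, 13 were called lower and 5 higher (median log2 change -0.91), with 7 lower when replicate 2 of either day was left out, 10 when replicate 1 of either day was, and 2 to 3 higher with any library left out. The ligands Dll1 and Dll3 fell, Dll1 from 21.1 and 28.2 CPM to 0.752 and 0.849 CPM (log2 fold change -4.88 ± 0.78, edgeR adjusted p = 0.00191). Among the receptors Notch3 fell from 102 and 108 CPM to 2.45 and 5.47 CPM (log2 fold change -4.67 ± 0.41, edgeR adjusted p = 6.52e-05). Notch4, a receptor best known from vessels, rose from 2.28 and 2.14 CPM to 81.5 and 64.6 CPM (log2 fold change 5.10 ± 0.31, edgeR adjusted p = 1.25e-05). The classical effector of progenitors, Hes5, was too low to be tested, at 0.821 and 0.139 CPM on day 0. Of 9 endothelial markers tested 2 were called higher and 2 lower, near the shares over all genes tested (17.8% and 16.9%), and these calls leaned on single libraries. Their summed level was 64.04 and 75.2 CPM on day 0 and 39.4 and 57.8 CPM on day 2.

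Hedgehog and Wnt genes were also called lower more often than higher. None of the 12 Hedgehog genes was called higher and 8 were called lower, among them the co-receptor Gas1, from 70.01 and 72.05 CPM to 10.1 and 4.39 CPM, and the receptor and target Ptch1, from 94.2 and 114 CPM to 38.7 and 42.7 CPM, the latter in a call lost without day 0 replicate 2. Hedgehog genes called lower were 4 without day 0 replicate 2 and 6 to 7 without any other library. No Hedgehog gene was higher at an unadjusted p below 0.05 (0 genes) or in DESeq2 (0 genes). Of 30 Wnt genes 11 were called lower and 4 higher, but only 3 to 4 lower when either day 0 library or day 2 replicate 1 was left out, and 1 to 2 higher with any library left out. The target gene Axin2 fell from 36.3 and 49.3 CPM to 1.65 and 4.43 CPM, the receptor Fzd1 from 209.8 and 245 CPM to 9.59 and 13.4 CPM, and the nuclear effector Lef1 rose from 0.730 and 0.836 CPM to 9.26 and 9.15 CPM.

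Targets of LIF, a cytokine that acts through STAT3 and is a usual part of mouse embryonic stem cell medium, moved little as a list (median log2 change 0.09), and 6 of 19 were called higher and 2 lower. The higher calls were 3 without day 0 replicate 1 and 4 to 6 without any other library, and the lower calls were 3 without day 2 replicate 2 and 0 without any other. Socs2, a feedback inhibitor of cytokine receptors, rose from 5.56 and 3.39 CPM to 45.99 and 33.9 CPM (log2 fold change 3.21 ± 0.43, edgeR adjusted p = 0.000588). The kinase Pim1 rose from 8.76 and 7.75 CPM to 48.2 and 46.2 CPM. Among BMP and TGF-beta genes 6 of 31 were called higher and 6 lower, in shares close to the background. The higher calls were 2 when either day 0 library was left out and 3 without day 2 replicate 2, and the lower calls were 2 when either day 0 library was left out and 1 without day 2 replicate 1. Ltbp1, which binds latent TGF-beta in the matrix, rose from 28.4 and 35.05 CPM to 353 and 218 CPM. Bmp7 fell from 84.7 and 90.2 CPM to 5.50 and 4.77 CPM. Id1, the standard BMP target, rose from 36.5 and 33.6 CPM to 67.5 and 163 CPM, in a call kept only without day 2 replicate 1.

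Epithelial genes rose from low levels. Of 39 tested, 25 were called higher and 0 lower by edgeR (0 lower at an unadjusted p below 0.05 and 0 in DESeq2), with a median log2 change of 2.79 (2.90 with genes absent on day 0 set to their lower bound). With a library left out the number called higher was the same or smaller. The summed level of the list went from 84.9 and 94.2 CPM to 1157 and 915 CPM. Cldn3, a tight junction claudin, rose from 0.228 and 0.186 CPM to 196 and 99.98 CPM (log2 fold change 9.48 ± 0.58, edgeR adjusted p = 1.25e-05). Pkp1, a desmosome plaque protein, rose from 0.137 and 0.511 CPM to 179 and 168 CPM. Krt8, a keratin of simple epithelia, had 3 counts on day 0 and was at 78.5 and 17.8 CPM on day 2, 699-fold higher (95% exact counting interval 239 to 3392). Epcam, a surface adhesion protein, rose from 0.821 and 0.743 CPM to 7.48 and 7.36 CPM. E-cadherin (Cdh1) was already present in NPCs, at 16.01 and 22.7 CPM, and rose to 36.6 and 46.05 CPM (log2 fold change 1.15 ± 0.25, edgeR adjusted p = 0.00684), a call lost without day 0 replicate 1.

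Some genes of stratified skin had 0 counts in both day 0 libraries and were called higher. The 10 genes that the naming rule took as largest rises all had 0 counts on day 0, so their order is not fixed by these data. Aqp3, a water channel of epidermis, reached 54.6 and 45.9 CPM, at least 729-fold above the day 0 floor. Krt14, a basal keratin, reached 16.6 and 19.8 CPM, at least 264-fold higher, and Krt16 and Krt6a were at least 358-fold and 239.9-fold higher. Krtdap and Krt79 stood at 45.1 and 19.96 CPM and at 26.9 and 17.03 CPM. Of 23 keratinocyte genes listed 18 were tested, and 12 were called higher and 1 lower. Their median log2 change was 5.38, or 3.002 with absent genes at their bound. Of those tested, 8 had 0 counts on 1 of the days. A gene silent on day 0 was tested only if other libraries of the fit expressed it, so this share depends partly on the filter. The epidermal master factor Trp63 was not among the genes tested, being too low, at 0 and 0.232 CPM on day 0 and 0.0470 and 0.0944 CPM on day 2. Factors of trophoblast and endoderm gave 7 of 15 called higher and 0 lower by edgeR (0 lower at an unadjusted p below 0.05 and 0 in DESeq2), with 4 and 3 higher without day 0 replicates 1 and 2. Of the 21 factors listed 6 were not tested, and this share depends on the filter in the same way. Hand1, a factor of trophoblast and heart mesoderm, reached 19.5 and 27.98 CPM from 0 counts, at least 344-fold higher, and the cardiac myosin light chain Myl7 20.4 and 7.08 CPM from 0 counts.

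Most pluripotency genes did not pass the test. Of 37 tested, 9 were called higher, 2 lower and 26 neither, and the median log2 change was 0.00 (0.24 with absent genes at their bound). Lin28a, an RNA-binding inhibitor of let-7 microRNAs, rose from 0.137 and 0.139 CPM to 38.6 and 64.3 CPM (log2 fold change 8.53 ± 0.46, edgeR adjusted p = 7.43e-06), and its paralog Lin28b from 2.65 and 1.95 CPM to 22.4 and 20.3 CPM, the latter called except without day 0 replicate 2. Nanog rose from 0.456 and 0.975 CPM to 6.77 and 6.56 CPM (log2 fold change 3.26 ± 0.75, edgeR adjusted p = 0.00847), a call lost without day 0 replicate 1. Oct4 (Pou5f1) had no count on day 0 and was at 1.18 and 1.04 CPM on day 2, at least 16.04-fold higher, with 47 counts in all. Reads from near-identical Pou5f1 pseudogenes could share in so small a count. Zfp296, a Klf4-associated factor of stem cells, rose from 0.319 and 0.603 CPM to 12.8 and 5.76 CPM. The naive markers Zfp42 and Dppa2 stayed at or below 0.0912 CPM in all 4 libraries.

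Ribosome biogenesis genes rose widely. Of 45 ribosome biogenesis and Myc target genes, 39 were called higher and 0 lower by edgeR (0 lower at an unadjusted p below 0.05 and 1 in DESeq2), with a median log2 change of 1.43 and 24 to 38 higher calls with a library left out, 24 without day 0 replicate 2. Their summed level went from 9371 and 8926 CPM to 23011 and 25348 CPM. Nop16, a nucleolar protein, rose from 36.1 and 29.1 CPM to 143 and 129 CPM, Rrp9, which guides ribosomal RNA processing, from 43.6 and 41.8 CPM to 164 and 158 CPM, and the mitochondrial chaperonin Hspd1 from 762 and 685 CPM to 2405 and 3196 CPM (log2 fold change 2.01 ± 0.30, edgeR adjusted p = 0.00108). Ribosomal protein genes gave 2 of 30 called higher and 0 lower by edgeR (0 lower at an unadjusted p below 0.05 and 0 in DESeq2), and both calls were lost when any library was left out. The count depended on the fit: 9 were higher at an unadjusted p below 0.05, 18 were called higher with only the groups compared in the fit, 14 with a replicate block and 15 with both. Their summed level was 18496 and 16306 CPM on day 0 and 34695 and 23129 CPM on day 2, with the day 2 libraries far apart. The Myc antagonist gene Mxi1 rose from 14.3 and 8.59 CPM to 78.96 and 62.5 CPM, and Mxd4, of the same family, fell from 50.6 and 32.8 CPM to 8.94 and 18.1 CPM, in a call lost without day 0 replicate 1 or day 2 replicate 1.

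**Figure D4:**
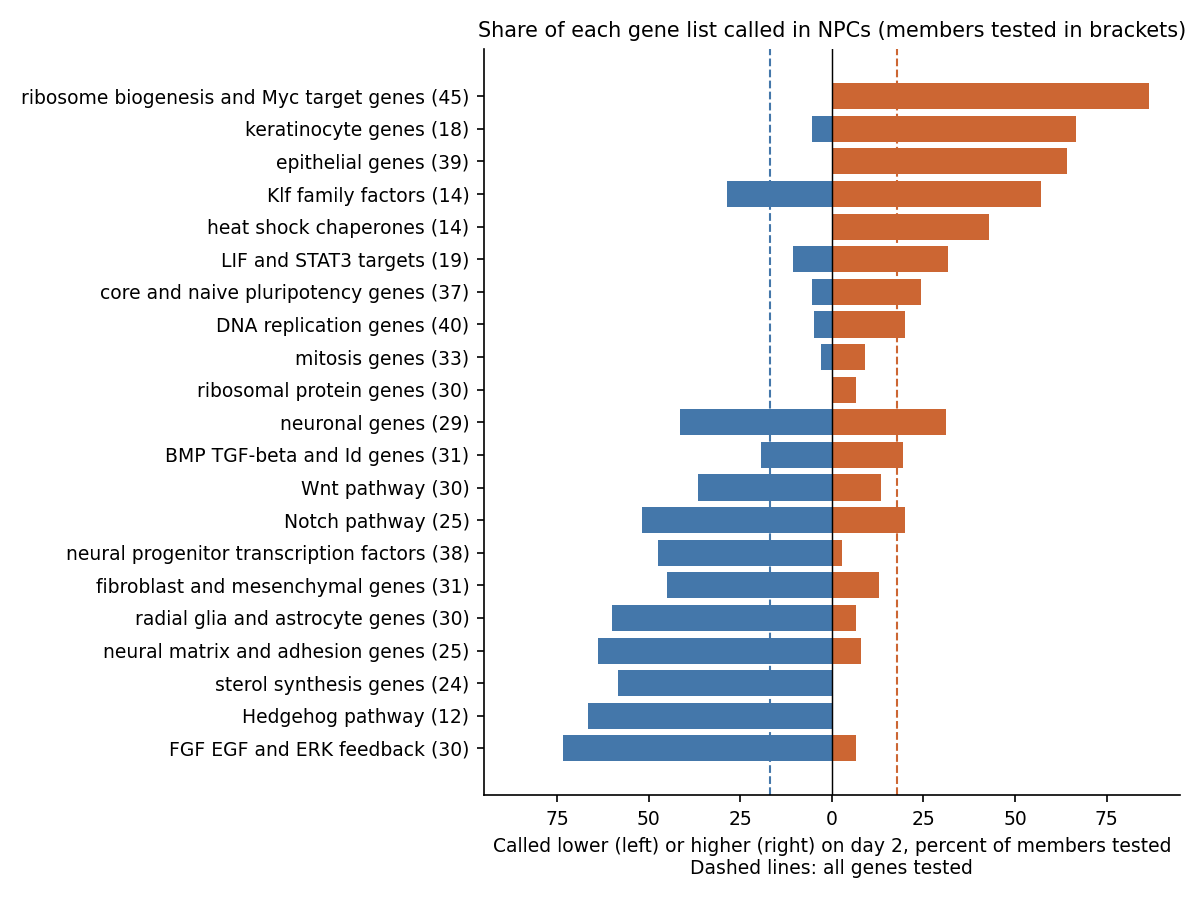
Percent of tested members of the gene lists drawn called higher (right, orange) or lower (left, blue) on day 2, with dashed lines at the shares over all genes tested (17.8% higher, 16.9% lower). Among the lists drawn, ribosome biogenesis and keratinocyte genes stand farthest to the right, and FGF, EGF and ERK genes farthest to the left.

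To show what these promoters hold, the E-box CACGTG bound by Myc and Max (a palindrome, read on both strands) was searched in the 250 bases upstream of RefSeq gene starts (GRCm38.p6). It was present in 6.0% of all 32851 windows and in 8.1% of those of genes tested. The shares were 8.9% for genes called higher and 6.2% for genes called lower. Of the 51 windows of ribosome biogenesis and Myc target list members, 19.6% held it. That list was drawn up to hold Myc targets, so its share depends on the choice. A gene can have several windows, and by gene symbol the box was found for 7 of 39 list members and 1078 of 11045 tested. The 3 members with the box and the largest rises are shown 5′ to 3′ on the gene's strand, with the E-box in capitals: Hspd1 lies at chr1:55088244-55088493 on the minus strand, Nop2, a ribosomal RNA methyltransferase, at chr6:125131633-125131882 on the plus strand, and the translation factor gene Eif5a at chr11:69921387-69921636 on the minus strand.
Hspd1: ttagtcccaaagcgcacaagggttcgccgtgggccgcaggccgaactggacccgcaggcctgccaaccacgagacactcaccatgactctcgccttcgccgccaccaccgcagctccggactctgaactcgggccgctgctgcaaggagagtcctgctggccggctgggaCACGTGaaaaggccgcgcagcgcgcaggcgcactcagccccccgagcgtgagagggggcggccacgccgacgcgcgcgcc
Nop2: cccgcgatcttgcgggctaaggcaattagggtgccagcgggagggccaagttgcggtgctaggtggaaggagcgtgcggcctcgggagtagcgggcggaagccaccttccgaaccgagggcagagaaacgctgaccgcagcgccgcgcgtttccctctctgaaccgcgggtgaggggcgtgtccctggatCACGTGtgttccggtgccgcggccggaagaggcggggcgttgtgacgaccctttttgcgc
Eif5a: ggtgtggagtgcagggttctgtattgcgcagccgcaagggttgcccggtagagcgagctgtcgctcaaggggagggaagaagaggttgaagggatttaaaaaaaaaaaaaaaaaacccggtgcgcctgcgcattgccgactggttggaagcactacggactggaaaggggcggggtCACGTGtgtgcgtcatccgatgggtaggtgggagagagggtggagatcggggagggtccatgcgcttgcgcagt
The box lies 74, 54 and 68 bases before the annotated start, in that order. Nop2 went from 80.7 and 82.6 CPM to 229.9 and 256 CPM. These matches describe letters, not binding.

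The same was done for CACCC, the core of the element that Klf factors bind, on both strands. It is short and common, in 52.0% of all windows and 58.8% of those of genes tested, and in 71.4% of the 28 windows of epithelial list members. The shares were 61.5% for genes called higher and 62.0% for genes called lower. By gene symbol it was found for 19 of the 23 list members with a window, out of 39 tested, and for 6956 of 11045 genes tested. The 2 epithelial members with the largest rises that hold it are Cldn3, at chr5:134985964-134986213 on the plus strand, and Krt8, at chr15:102004343-102004592 on the minus strand, with matches in capitals, GGGTG being the same element read on the other strand.
Cldn3: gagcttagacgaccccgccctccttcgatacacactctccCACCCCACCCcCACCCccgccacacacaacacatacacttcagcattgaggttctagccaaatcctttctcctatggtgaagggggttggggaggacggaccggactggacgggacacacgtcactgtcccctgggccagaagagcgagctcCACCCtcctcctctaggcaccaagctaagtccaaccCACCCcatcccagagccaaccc
Krt8: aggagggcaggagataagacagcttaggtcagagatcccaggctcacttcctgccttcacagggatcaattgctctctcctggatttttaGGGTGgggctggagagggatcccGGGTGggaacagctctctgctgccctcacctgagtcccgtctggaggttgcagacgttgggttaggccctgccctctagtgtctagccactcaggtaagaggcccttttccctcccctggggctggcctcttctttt
The motifs were chosen with results known, and what they contribute was not tested. For the promoters shown with either motif, not every chromosome was drawn on.

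Most cell cycle genes did not pass the test. Of 40 DNA replication genes, 8 were called higher and 2 lower (median log2 change 0.18), and of 33 mitosis genes 3 were called higher and 1 lower (median 0.06), shares close to or below the background. With a library left out 0 to 3 replication genes and 0 to 1 mitosis genes were called higher, for each of the 4 libraries. Their summed levels were 3674 and 3747 CPM on day 0 and 3741 and 4275 CPM on day 2 for replication genes. The proliferation marker Mki67 was at 609 and 641 CPM and then 310.1 and 279 CPM (edgeR adjusted p = 0.0895). Of Cdk inhibitors and p53 targets, 9 of 27 were called lower and 2 higher, the former 4 without day 0 replicate 2 or day 2 replicate 1. Cdkn2b, which encodes an inhibitor of Cdk4, fell from 36.2 and 28.8 CPM to 3.29 and 3.02 CPM. Its neighbour Cdkn2a, with levels of 26.8 and 25.4 CPM and then 14.4 and 12.2 CPM, fell in a call lost with any library left out. Cdkn1a did not pass, at 447 and 431 CPM on day 0 and 536 and 543 CPM on day 2.

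Sterol synthesis genes fell: 14 of 24 were called lower and 0 higher by edgeR (0 higher at an unadjusted p below 0.05 and 0 in DESeq2), with a median log2 change of -1.04 and 6 lower calls without day 0 replicate 1 or day 2 replicate 2, 8 without day 0 replicate 2 and 13 without day 2 replicate 1. Insig1, a sterol sensor that is itself a target of the sterol pathway, fell from 206 and 197 CPM to 26.01 and 19.3 CPM (log2 fold change -3.10 ± 0.43, edgeR adjusted p = 0.000713). Sqle, squalene epoxidase, fell from 296 and 296 CPM to 90.5 and 70.6 CPM. Of 14 heat shock genes 6 were called higher and 0 lower by edgeR (1 lower at an unadjusted p below 0.05 and 1 in DESeq2), with 2 higher without day 0 replicate 2 and 4 to 6 without any other library. Among them was Hspb1, from 6.89 and 9.66 CPM to 61.7 and 47.1 CPM. The glucose enzyme Hk2 rose from 43.4 and 44.98 CPM to 192 and 179 CPM and the lactate transporter Slc16a1 from 62.1 and 56.3 CPM to 259 and 228 CPM, while the brain isoform Aldoc fell from 86.6 and 71.1 CPM to 6.91 and 0.991 CPM.

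Factors of the families to which the induced factors belong moved in both directions. Of 14 Klf genes tested, 8 were called higher and 4 lower, and of 13 Sox genes 3 were called higher and 6 lower. The induced Klf4 and Sox2 count among those called higher. Both stayed called with any library left out, so a lone higher Sox call is Sox2 itself. With a library left out the higher Klf calls were 6 without day 0 replicate 1 and 4 to 5 without any other, and the higher Sox calls were 1 when either day 0 library was left out and 2 otherwise. Klf8 rose from 2.60 and 2.41 CPM to 91.8 and 122 CPM (log2 fold change 5.47 ± 0.50, edgeR adjusted p = 7.77e-05), whereas Klf15 fell from 6.52 and 5.99 CPM to 0.0941 and 0.330 CPM. Sox4, a factor of immature neurons among others, fell from 48.8 and 70.3 CPM to 12.7 and 12.03 CPM, and Sox8, a relative of Sox9, from 55.6 and 44.5 CPM to 14.2 and 12.03 CPM. Among 38 genes of DNA methylation and chromatin, 7 were called lower and 4 higher, shares close to or below those over all genes tested (16.9% lower and 17.8% higher). With any library left out 3 to 5 were called lower and 0 to 1 higher. The 5-methylcytosine dioxygenase gene Tet2 fell from 31.9 and 49.4 CPM to 9.17 and 12.1 CPM (log2 fold change -1.88 ± 0.29, edgeR adjusted p = 0.00129). Its relative Tet1, which embryonic stem cells express, fell from 30.9 and 31.8 CPM to 11.9 and 5.24 CPM, in a call lost without day 2 replicate 2. Smarcc2, a subunit of the BAF remodelling complex of neural cells, fell from 157 and 175 CPM to 21.5 and 45.7 CPM. Of 21 interferon-stimulated genes 2 were called lower and 1 higher (2 to 3 and 0 to 1 with a library left out). Both shares of the interferon list lay below those over all genes tested. The stress response gene Trib3 differed between the day 2 libraries, at 112 and 9.67 CPM after 13.2 and 25.3 CPM.

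Markers of other cell types moved as well, and their part in the results above was not tested. Fibroblast genes were present on day 0, with a summed level of 2941 and 3001 CPM over the list, and stood at 900.0 and 1411 CPM on day 2. Of 31 tested, 14 were called lower and 4 higher, but only 1 to 6 were called lower with any one of the libraries left out. Postn went from 53.05 and 40.02 CPM to 0.141 and 1.09 CPM, in a call lost with any library left out. Myeloid markers summed to 5.84 and 7.57 CPM on day 0 and 6.96 and 5.52 CPM on day 2, with 5 to 8 of 17 at 0 in each library. Hoxc8 and Tbx5, limb and trunk factors that uninduced MEFs expressed at means of 45.6 and 19.4 CPM and induced MEFs at 5.83 and 3.89 CPM, had 0 counts in all 4 NPC libraries. Other genes of MEFs were not absent. Hoxa9, at means of 22.5 and 30.03 CPM in MEFs, rose in NPCs from 1 count to 92 counts (2.63 and 1.70 CPM; edgeR adjusted p = 0.00746), in a call lost without day 0 replicate 2. Hoxa10, at means of 42.9 and 5.52 CPM in MEFs, had 0 counts on day 0 and 2 on day 2 in NPCs. Tbx15 was at 5.66 and 5.48 CPM in NPCs on day 0 and 1.79 and 5.33 CPM on day 2, against means of 129 and 23.9 CPM in MEFs. In turn Otx2 was at or near 0 in the MEF libraries of both days (means 0.0297 and 0.0234 CPM). These genes were picked after their values were seen.

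MEFs carrying the same factors, in the same induction medium, had gone through 2 days as well (2 libraries a day). They gave 3147 genes higher (20.6%) and 3626 lower (23.8%) out of 15246 tested. Of the NPC rises that were tested in both cell types, 65.2% were also called higher in MEFs, which is 56.7% of the MEF rises, and of the NPC falls 66.6% were shared, 44.1% of the MEF falls. In the opposite direction, 77 NPC rises were called lower and 53 NPC falls called higher in MEFs. Over the 15565 genes of the NPC fit the cell types came to look alike. The log2 levels of NPC and MEF libraries correlated at r = 0.829 to 0.858 on day 0 and at r = 0.952 to 0.975 on day 2. Genes more than 2 log2 units apart went from 1792 to 280. Of 15246 genes tested in MEFs 14770 are among them, and genes such as Hoxc8 and Tbx5, absent from NPCs, are left out. Replicates of NPC day 2 correlated at r = 0.975. Same-numbered day 2 libraries of the cell types deviated together (r = 0.71), and what this adds to the likeness was not tested. For comparison, NPC libraries of day 0 and day 2 correlated at r = 0.841 to 0.877. The points share libraries and a common set of highly expressed genes, so these correlations are descriptions.

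A direct test of the difference between the responses called 644 genes (3.98%) with a more positive response in NPCs and 660 (4.08%) with a more negative one, out of 16188. Leaving out a library gave 257 to 853 and 313 to 986 calls, the lowest without NPC day 0 replicate 2. Of the 40 DNA replication genes 22 had a lower response in NPCs and of the 33 mitosis genes 18 had one. With only the groups compared in the fit these counts were 9 and 6. In MEFs 32 of the replication genes were called higher. With a library left out, the replication count ranged from 12 to 25, staying under 15 without MEF day 0 replicate 2, MEF day 2 replicate 1, NPC day 0 replicate 2 or NPC day 2 replicate 1. The mitosis count ranged from 2 to 29, the highest without MEF day 0 replicate 1 and at most 7 without any other library. Pcna, the replication clamp, went from a mean of 312 to 388 CPM in NPCs and from 90.01 to 344 CPM in MEFs. Ribosome biogenesis genes responded in both, with 43 of 45 higher in MEFs, and 6 had a lower response in NPCs. That count was 9 without MEF day 0 replicate 2 and 2 to 4 without any other library. Of the LIF and STAT3 list 6 of 19 had a higher response in NPCs, and of the BMP and TGF-beta list 11 of 31 a higher one and 1 a lower one. The count of 6 ranged from 3 to 8 with a library left out and was 3 when either MEF day 2 library was the one. The count of 11 ranged from 3 to 12 and was at most 6 when it was either MEF day 2 library, either NPC day 0 library or NPC day 2 replicate 2. The starting levels differed here too. Thbs1, a secreted regulator of TGF-beta, was at 11685 CPM in MEFs before and 7.51 CPM after induction, against 205 and 59.6 CPM in NPCs.

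**Figure D5:**
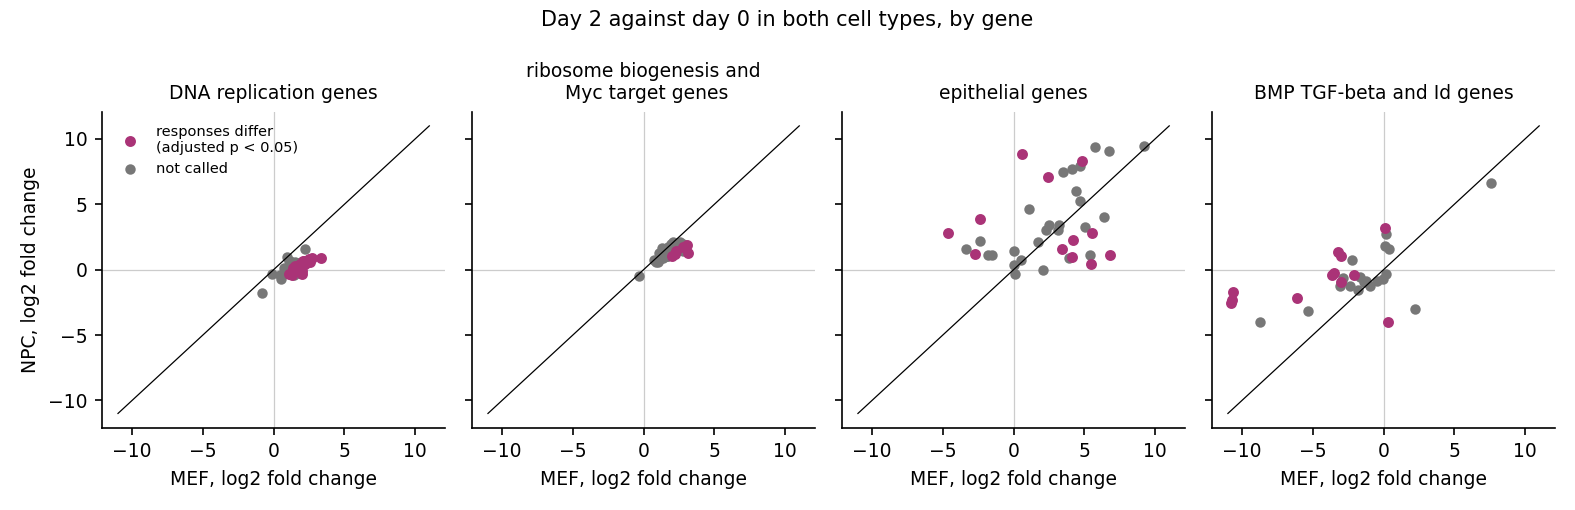
Log2 fold change of day 2 against day 0 in MEFs (x) and NPCs (y) for members of 4 gene lists, with genes whose responses differ at an edgeR adjusted p below 0.05 in purple and the line of equal response in black. Replication genes lie near 0 on the NPC axis but to the right on the MEF axis; fitted values of genes absent from a group are not bounds.

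Some single genes responded differently in the cell types. Slc1a3 fell in NPCs but rose in MEFs, from a mean of 11.9 to 47.3 CPM, a difference in log2 response of -4.83 ± 0.72 (SE; edgeR adjusted p = 0.00125), and the cell types ended at 72.7 and 47.3 CPM. Nanog rose in NPCs and fell in MEFs, from 0.784 to 0.104 CPM (difference 6.09 ± 1.21, edgeR adjusted p = 0.00651). Cdh1 reached 41.3 CPM in NPCs and 47.5 CPM in MEFs from very unequal starts (difference -5.78 ± 0.77, edgeR adjusted p = 0.000652). Nup210, a nuclear pore component, was at means of 162 and 187 CPM in NPCs and went from 0.221 to 128 CPM in MEFs. Hoxd13, a limb factor, rose in NPCs to 17.8 and 8.26 CPM from 1 count, while in MEFs it was at 21.9 and 25.2 CPM.

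The authors' deposited table marks 872 genes up and 1235 down between these days, each with a log2 fold change of at least 1.61 in size. Of those 867 and 1213 were called in the same direction here. Both rest on the same counts, and the deposited lists are shorter than those here. They leave unmarked some genes called here, among them Dcx, Cdh1, Tet2 and Aldoc. The thresholds appear to be unlike. The tests here are against no change, whereas the deposited p-values look like those of a test against a change of 1 log2 unit. Genes with a smaller deposited change, such as Ccnd1 (-0.761), Cdkn1a (0.373) and Mki67 (-0.999), carry the largest possible p there. The lengths of the lists are therefore not directly comparable.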

How the data were processed

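RNA was sequenced as total RNA libraries made with a kit that does not mark strand, so a gene and an overlapping or antisense partner cannot be told apart. Per the submitters' processing notes, FastQC and STAR 2.5.1b were used and the build was mm9. The values tested are whole-number read counts per gene, as deposited by the authors. A log2 fold change and p-values for these days also come from the authors, in a deposited table whose test is not given in the sources used here. The tables held 37999 lines for 37620 Ensembl genes; 307 genes listed more than once were kept once, 27 symbols turned into dates were restored and 16079 genes had no symbol. Chromatin samples were not used here.

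Counts were analysed with edgeR 4.0.16 in R 4.3.3 (TMM scaling, quasi-likelihood test, Benjamini-Hochberg adjustment over all genes tested). The NPC fit held 10 NPC libraries and the 2 pluripotent lines, and a gene needed at least 1 CPM in at least 2 of the 12 libraries. A joint fit of 22 libraries tested NPC minus MEF responses, and a like fit served MEFs. CPM levels use TMM sizes over all 22 libraries. An SE is the log2 fold change divided by the square root of the test's F value. A fold against a group with 0 counts uses a floor of 3 counts over its 2 libraries. The fitted log2 fold change of a gene absent from a group depends on the prior count and is no bound. Correlations used log2(CPM + 1). The column taken for the SKM iPSC line carries a 9 in its heading, and the NPC day 4 columns are headed feeder and nofeeder, which the labels do not explain. The scripts were tested on simulated data.

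Genes were named by rule: 26 core genes, the 4 members of each of 35 lists with the largest changes and at least 5 CPM, the 10 largest rises and falls, and the 6 largest differences of response per sign; others are marked as picked after their values were seen, as are members given as low or absent (Hes5 is a core gene; Trp63, Dppa2, Nop2 and Pcna were so picked). The members and lists were chosen with earlier results of these data known. Same-numbered replicates of NPC day 0 and day 2 did not deviate together (r = -0.03). Alternatives were other scaling (RLE, upper quartile), other filters, DESeq2 1.42.0, other sets of libraries, a replicate block and each replicate left out. Promoter windows came from RefSeq tables of GRCm38.p6, used for sequence only. Some genes taken by the rule are not reported here.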

Additional observations from a re-analysis of the deposited data

Results flagged for a closer look

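The day 2 response was tested for a difference between NPCs and MEFs, and the counts of genes, 644 more positive in NPCs and 660 more negative, together with the genes below were noted because that test called them. Differences are on the log2 scale, NPC response minus MEF response, from the edgeR joint fit.

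Msln, the mesothelial surface protein mesothelin, went from a mean of 0.184 to 5.61 CPM in NPCs and from 97.2 to 3.51 CPM in MEFs, a difference of 9.67 ± 1.13 (SE; adjusted p = 0.000220). Plac8, a small cysteine-rich protein, went from a mean of 0 to 0.424 CPM in NPCs and from 33.7 to 2.83 CPM in MEFs, a difference of 9.58 ± 1.97 (SE; adjusted p = 0.00860). Il1rn, the interleukin 1 receptor antagonist, went from a mean of 0.0696 to 0.401 CPM in NPCs and from 186 to 1.68 CPM in MEFs, a difference of 9.20 ± 1.83 (SE; adjusted p = 0.00651). Thbs1, thrombospondin 1, went from a mean of 205 to 59.6 CPM in NPCs and from 11685 to 7.51 CPM in MEFs, a difference of 8.82 ± 1.95 (SE; adjusted p = 0.0118). Hoxd13, a limb homeobox factor, went from a mean of 0.0232 to 13.0 CPM in NPCs and from 21.9 to 25.2 CPM in MEFs, a difference of 8.58 ± 1.30 (SE; adjusted p = 0.00132). Nanog, a pluripotency factor, went from a mean of 0.715 to 6.67 CPM in NPCs and from 0.784 to 0.104 CPM in MEFs, a difference of 6.09 ± 1.21 (SE; adjusted p = 0.00651). Plac8 had 0 counts in NPCs on day 0, Hoxd13 had 1 and Il1rn had 3, so their fitted differences depend on the prior count and are no bounds. With a library left out, the call of Thbs1 was lost without MEF day 2 replicate 1, either NPC day 0 library or NPC day 2 replicate 2, and that of Il1rn without NPC day 2 replicate 2. For Thbs1 the difference came with a far larger fall in MEFs, from a level well above that of NPCs.

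Fgf15, a secreted FGF, went from a mean of 29.8 to 33.7 CPM in NPCs and from 0 to 10.1 CPM in MEFs, a difference of -10.39 ± 2.08 (SE; adjusted p = 0.00766). Nup210, a nuclear pore protein, went from a mean of 162 to 187 CPM in NPCs and from 0.221 to 128 CPM in MEFs, a difference of -8.91 ± 0.48 (SE; adjusted p = 1.43e-07). Adgrb1, an adhesion receptor of brain, went from a mean of 75.5 to 19.0 CPM in NPCs and from 0.293 to 32.5 CPM in MEFs, a difference of -8.70 ± 1.28 (SE; adjusted p = 0.00113). Slc6a11, a GABA transporter, went from a mean of 69.9 to 22.7 CPM in NPCs and from 0 to 0.807 CPM in MEFs, a difference of -8.56 ± 1.34 (SE; adjusted p = 0.00198). Cntnap2, a neuronal adhesion protein, went from a mean of 23.4 to 1.84 CPM in NPCs and from 0 to 0.174 CPM in MEFs, a difference of -8.43 ± 1.87 (SE; adjusted p = 0.0133). Cdh1, E-cadherin, went from a mean of 19.3 to 41.3 CPM in NPCs and from 0.412 to 47.5 CPM in MEFs, a difference of -5.78 ± 0.77 (SE; adjusted p = 0.000652). Slc1a3, a glial glutamate transporter, went from a mean of 520.5 to 72.7 CPM in NPCs and from 11.9 to 47.3 CPM in MEFs, a difference of -4.83 ± 0.72 (SE; adjusted p = 0.00125). Ccnd1, cyclin D1, went from a mean of 1242 to 683 CPM in NPCs and from 259 to 757 CPM in MEFs, a difference of -2.41 ± 0.54 (SE; adjusted p = 0.0134). Sox2, an induced factor, went from a mean of 189 to 652 CPM in NPCs and from 5.11 to 797 CPM in MEFs, a difference of -5.49 ± 0.35 (SE; adjusted p = 9.15e-07). Fgf15, Slc6a11 and Cntnap2 had 0 counts in MEFs on day 0, so their fitted differences are no bounds. The call of Ccnd1 was lost without MEF day 2 replicate 2, NPC day 0 replicate 1 or NPC day 2 replicate 1, and that of Cntnap2 without MEF day 2 replicate 2. Sox2 started high in NPCs and low in MEFs, and ended at similar levels.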

How the results depend on the processing

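Depth limits genes near 1 CPM, and with 2 libraries a group a left-out library leaves 1 sample that is assumed to vary like the other groups. NPC day 2 against day 0: genes called higher ranged from 1155 to 2156 and genes called lower from 1087 to 1846 when 1 library was left out, and both were within 1.5 times of 2770 and 2637 under the other alternatives run. Day 2 response, NPC minus MEF: genes called higher numbered 1113 with DESeq2, 363 with only the groups compared and 257 to 853 with a library left out, against 644. Genes called lower numbered 385 with only the groups compared and 313 to 986 with a library left out, against 660. MEF day 2 against day 0: genes called higher numbered 2065 with only the groups compared, against 3147. The cause was not tested. With a replicate block, the NPC counts were 3078 higher and 2905 lower, 5345 of the calls were kept, and the response counts were 687 and 774; since the numbers do not pair the NPC samples, this is a description. A block chosen after seeing the data, the day 2 replicate number shared by both cell types, gave 728 and 724. With a library left out, 4 of the 173 genes taken by the naming rule changed sign. Gfap ranged from -1.32 (without NPC day 2 replicate 2) to 1.97 and Fosb from -7.07 to 0.068 (without NPC day 0 replicate 2). Trib3 ranged from -0.92 (without NPC day 2 replicate 1) to 2.58 and Fgf15 from -0.96 (without NPC day 2 replicate 1) to 0.87. Tbx15, picked after its values were seen, also changed sign, ranging from -1.59 to 0.0062. Of 145 named genes called, 93 were called the same way under all 14 alternatives. Of 980 counts over lists and alternatives, 793 lay within 1.5 times of the reported count, and upper-quartile scaling moved 0 of 70.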
